A study of Homo sapiens with 24 samples.

Results

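The clustered histone genes encode the linker histone H1 and the core histones H2A, H2B, H3 and H4, and were taken here as every gene whose single array symbol begins with HIST1H, HIST2H, HIST3H or HIST4H. Of 54 such symbols, 5 were left out as pseudogenes (HIST1H2APS1, HIST2H3PS2, HIST2H2BA, HIST2H2BB and HIST2H2BC), which left 49 genes of the 25029 genes with a probe set of their own. They comprise 6 H1, 13 H2A, 16 H2B, 9 H3 and 5 H4 genes, of which 41 lie in the HIST1 cluster on chromosome 6, 5 in HIST2 and 3 in HIST3. No symbol of the HIST4 cluster met the rule. A total of 45 members had a group mean above the level below which genes were not tested (log2 intensity 2.83), and 4 did not: HIST1H2BA, HIST1H3C, HIST1H4F and HIST1H4G. HIST1H2BA is a testis form.

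In background, these genes are switched on together as cells enter S phase, when new DNA has to be packed into nucleosomes. NPAT, activated by cyclin E and CDK2, drives their transcription, and their messenger RNAs end in a stem-loop bound by SLBP instead of a poly(A) tail. The messages are degraded when DNA synthesis stops, so their level follows the share of cells in S phase. A few members, among them HIST1H2BD, HIST1H2BK, HIST1H2AC and HIST2H2BE, are also known to make polyadenylated messages that persist outside S phase.

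The arrays (Affymetrix Human Gene 2.1 ST) measured total RNA from 2 human lines, each with an HA-YWHAE-NUTM2 fusion gene under inducible control. The fusion is known from a childhood kidney tumour, clear cell sarcoma. BJ-hTERT cells are fibroblasts of the foreskin made immortal by telomerase, and HEK293 cells derive from embryonic kidney. Each line was treated with doxycycline in water to induce the fusion, or with water alone (mock), for 24 or 72 h. The 8 groups held 3 arrays each, 24 in all. Both lines and both arms carry the construct, so the mock arrays are uninduced cells of the same line and doxycycline itself cannot be told apart from the fusion. The labels do not say whether a line is a clone, or whether the arrays of a group came from separate cultures, so each p-value measures the spread between arrays, which may be technical. In the titles of 3 arrays, those of HEK293 with doxycycline for 24 h, the name is written HEK239, while their cell line label reads HEK293.

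Arrays of one group correlated at 0.98 to 0.985 across genes. All 11 fibroblast markers were higher on every BJ-hTERT array than on any HEK293 array, and 5 of 7 HEK293 markers were higher on every HEK293 array, with 1 of 7 higher in BJ-hTERT. NUTM2B, the array symbol that reads NUTM2 sequence, was at 3.17 to 4.30 on the HEK293 mock arrays at 24 h and at 5.88 to 6.23 with doxycycline, and rose by 1.90 to 2.33 on the log2 scale in the 4 comparisons. YWHAE was not analysed here. All levels below are log2 intensities, and all changes are differences of log2 intensity, doxycycline minus mock, with the standard error of the limma fit. A gene was called changed at a Benjamini-Hochberg adjusted p under 0.05 over 17329 genes. Because probe sets differ in brightness, levels of different genes were not set against each other, other than to rank members by brightness.

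In BJ-hTERT fibroblasts, many of the histone genes were lower with doxycycline than with mock treatment at both times. At 24 h 22 of 45 tested members fell and none rose, where 4.39% of all genes tested fell and 4.47% rose. At 72 h 23 fell and 1 rose, where 4.59% of all genes tested fell and 4.03% rose. The median change over members was -0.71 at 24 h and -0.81 at 72 h, against 0.02 and -0.01 over all genes tested. Where only the brighter probe sets of each gene were averaged, the 24 h median was -1.20. The 3 doxycycline arrays lay below the 3 mock arrays without overlap for 28 members at 24 h and 30 members at 72 h, where 11.3% and 12.9% of all genes tested did so. In bulk RNA, fewer cells in S phase and less histone RNA per cell cannot be told apart.

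In HEK293 cells no histone gene was called at 24 h, where 0.0173% of all genes tested fell and 0.456% rose. At that time 3 of 45 members had an unadjusted p under 0.05, against 1484 of 17329 genes tested, and the median change was -0.02. At 72 h HIST1H1T alone was called, as higher, where 0.26% of all genes tested fell and 0.952% rose. There the median was -0.04, and 4 of 45 members had an unadjusted p under 0.05, against 2016 of 17329 genes tested. The doxycycline arrays lay below the mock arrays without overlap for 4 members at each time, where 5.49% and 8.48% of all genes tested did so. They lay above for 2 members at 24 h and 4 at 72 h, where 8.47% and 9.15% did so.

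**Figure D1:**
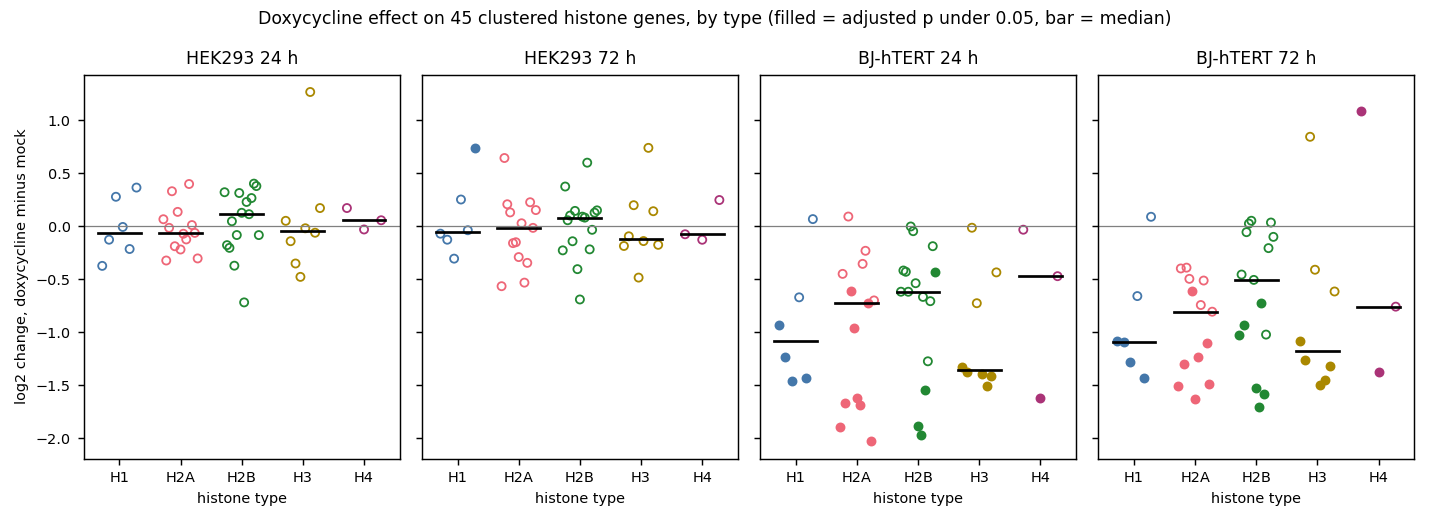
Change in log2 intensity (vertical axis, doxycycline minus mock) of each tested histone gene by histone type, in 4 panels for the 2 lines and 2 times. Filled points passed an adjusted p of 0.05 and bars are medians over members. In both HEK293 panels the medians lie between -0.12 and 0.11, while in BJ-hTERT the H1 and H3 medians lie below -1.

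**Figure D2:**
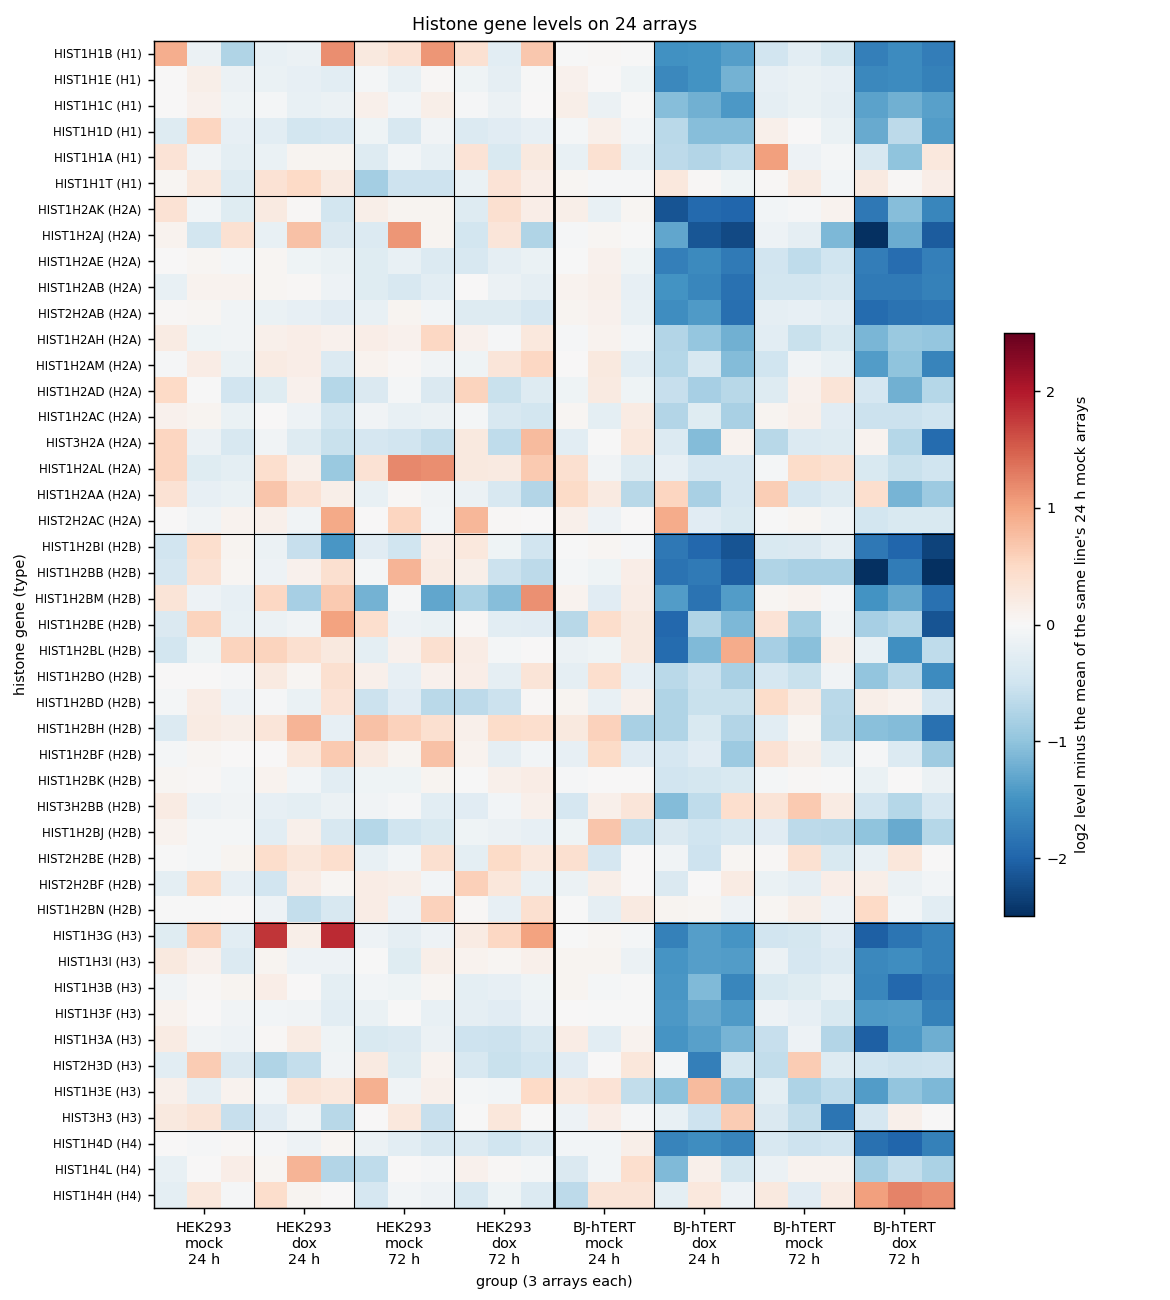
Log2 level of the 45 tested histone genes (rows, sorted by type and by the BJ-hTERT change at 24 h) on all 24 arrays (columns), minus the mean of the same line's 24 h mock arrays. Blue is lower and red is higher. Blue blocks fill the BJ-hTERT doxycycline columns in the upper rows of each type, and HIST1H4H is red in BJ-hTERT at 72 h.

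H1 linker histones bind the DNA that enters and leaves the nucleosome. Of 6 members, HIST1H1B, HIST1H1C, HIST1H1D and HIST1H1E fell in BJ-hTERT at both times, and the median of the type was -1.08 at 24 h and -1.09 at 72 h. HIST1H1B changed by -1.46 ± 0.35 and -1.28 ± 0.35, and HIST1H1D by -0.93 ± 0.20 and -1.09 ± 0.20. With only the brighter probe sets HIST1H1D was at -1.76 and -1.77. The 72 h call of HIST1H1B was lost without any 1 of the 6 arrays compared and in 2 of the alternative fits, with adjusted p up to 0.104. HIST1H1A was -0.67 ± 0.29 at 24 h and -0.66 ± 0.29 at 72 h and did not pass the test.

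HIST1H1E, a main somatic linker histone, read 10.53, 10.43 and 10.32 on the BJ-hTERT mock arrays at 24 h and 8.82, 8.93 and 9.24 with doxycycline. At 72 h the mock arrays read 10.22, 10.26 and 10.21 and the doxycycline arrays 8.82, 8.85 and 8.74. Every induced array lay below every mock array, and the changes were -1.43 ± 0.12 at 24 h (adjusted p = 9.85e-08) and -1.43 ± 0.12 at 72 h (adjusted p = 2.39e-07). On the HEK293 arrays HIST1H1E read 11.33, 11.47 and 11.18 on the 24 h mock arrays, 11.15, 11.11 and 11.07 on the 24 h doxycycline arrays, 11.27, 11.14 and 11.35 on the 72 h mock arrays and 11.22, 11.11 and 11.32 on the 72 h doxycycline arrays. The 24 h HEK293 groups did not overlap, and differed by -0.22 ± 0.12 (adjusted p = 0.649), and the 72 h groups overlapped.

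HIST1H1C, another somatic linker histone, read 9.44, 9.15 and 9.28 on BJ-hTERT mock arrays against 8.22, 8.09 and 7.85 on induced arrays at 24 h. The same gene read 9.07, 9.13 and 9.06 against 7.95, 8.08 and 7.94 at 72 h. Both times the groups stood apart, with changes of -1.23 ± 0.11 (adjusted p = 4.39e-07) and -1.09 ± 0.11 (adjusted p = 3.63e-06). Its HEK293 levels were 10.16, 10.26 and 10.05 on the 24 h mock arrays, 10.10, 9.97 and 10.02 on the 24 h doxycycline arrays, 10.28, 10.08 and 10.30 on the 72 h mock arrays and 10.12, 10.001 and 10.16 on the 72 h doxycycline arrays. The HEK293 groups overlapped at both times.

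HIST1H1T encodes a linker histone of the testis and was the one member called in HEK293. At 72 h it read 2.19, 2.54 and 2.53 on the mock arrays and 2.88, 3.39 and 3.20 on the doxycycline arrays. The groups did not overlap and the change was 0.74 ± 0.16 (adjusted p = 0.017). These levels lie close to the testing level of 2.83, and the call was lost in 3 of the alternative fits and without any of 3 single arrays, with adjusted p up to 0.185. With only the brighter probe sets the change was 1.40. At 24 h the mock arrays read 3.10, 3.32 and 2.73 and the doxycycline arrays 3.41, 3.54 and 3.28, which overlapped. The HEK293 mock level at 72 h was itself -0.63 ± 0.16 from that at 24 h (adjusted p = 0.0787). In BJ-hTERT every array read HIST1H1T below 2.83, from 1.37 to 1.75.

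Promoter sequences of HIST1H1E and HIST1H1T, shown because the first fell in BJ-hTERT and the second was the member called in HEK293, are the 250 bases before the start in RefSeq GRCh38.p14 (chr6:26156079-26156328, plus strand, and chr6:26108136-26108385, minus strand). Capitals mark the motifs searched on both strands: the CCAAT box (CCAAT), the TATA box (TATAAA), the H1 box (AAACACA), the octamer bound by POU2F1 (ATTTGCAT) and an H4 site (GGTCCG).
HIST1H1E: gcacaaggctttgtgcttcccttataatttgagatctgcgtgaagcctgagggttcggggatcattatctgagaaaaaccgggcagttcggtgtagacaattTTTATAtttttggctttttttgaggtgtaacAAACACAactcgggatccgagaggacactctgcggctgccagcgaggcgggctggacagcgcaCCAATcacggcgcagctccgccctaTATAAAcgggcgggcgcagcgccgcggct
HIST1H1T: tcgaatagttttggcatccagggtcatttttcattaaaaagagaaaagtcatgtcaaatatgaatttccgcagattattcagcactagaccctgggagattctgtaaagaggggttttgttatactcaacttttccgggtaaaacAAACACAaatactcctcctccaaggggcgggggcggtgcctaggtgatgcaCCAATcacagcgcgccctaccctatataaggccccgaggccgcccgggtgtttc
Both carry the H1 box, at -117 in HIST1H1E and -105 in HIST1H1T, and both carry CCAAT at -54, counted from the start. HIST1H1E also holds TATAAA at -29, and the letters TATAAA do not occur in the HIST1H1T window. Only those exact letters were searched, so near forms, such as tataag in the HIST1H1T window, were not counted. All 6 H1 promoters held the H1 box, which 5.64% of all 35116 RefSeq promoter windows of 300 bases held.

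H2A pairs with H2B in the dimers that flank H3 and H4 in the nucleosome core. In BJ-hTERT 8 of 13 H2A members fell at 24 h and 7 at 72 h, and the medians were -0.73 and -0.81. The 24 h median was -1.46 where only the brighter probe sets of each gene were averaged, and -1.27 at 72 h. The largest H2A change at 24 h was that of HIST1H2AK, -2.03 ± 0.21, followed by HIST1H2AJ at -1.90 ± 0.41. HIST1H2AH and HIST1H2AM also fell at both times, by 0.96 and 0.73 at 24 h and by 0.61 and 1.10 at 72 h. HIST1H2AH was at -1.64 and -1.002 with only the brighter probe sets, and its 72 h call was lost with only the arrays compared in the fit (adjusted p = 0.0653). HIST1H2AM was at -1.16 at 24 h with the brighter probe sets and at -1.87 at 72 h with the median of probe sets. Its 24 h call was lost in 2 of the alternative fits and without any of 4 single arrays, with adjusted p up to 0.259. The 72 h call of HIST1H2AJ was lost in 1 alternative fit and without any of 4 single arrays, with adjusted p up to 0.128. HIST1H2AC fell at 24 h only (-0.61 ± 0.16), and its 72 h change was -0.50 ± 0.16 (adjusted p = 0.0657). The 24 h call was lost in 3 of the alternative fits and without any of 4 single arrays, with adjusted p up to 0.389, and the change was -0.28 with the median of probe sets. The highest H2A change at 24 h was that of HIST2H2AC, at 0.09 ± 0.29, and the testis form HIST1H2AA was at -0.23 ± 0.39. Neither gene mean passed the test. The 1 probe set of HIST2H2AC tested alone was at -0.72 at 24 h and was called lower.

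HIST1H2AE had the smallest p of the members in BJ-hTERT at 24 h. It read 8.56, 8.68 and 8.46 on BJ-hTERT mock arrays and 6.86, 6.97 and 6.79 on induced arrays at 24 h. The 72 h levels were 8.08, 7.93 and 8.06 and 6.84, 6.67 and 6.85. The groups stood apart at both times, with changes of -1.69 ± 0.11 (adjusted p = 1e-08) and -1.24 ± 0.11 (adjusted p = 4.02e-07). In HEK293 the levels were 8.73, 8.75 and 8.66 on the 24 h mock arrays, 8.76, 8.62 and 8.55 on the 24 h doxycycline arrays, 8.41, 8.52 and 8.37 on the 72 h mock arrays and 8.32, 8.50 and 8.55 on the 72 h doxycycline arrays, and the groups overlapped.

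HIST1H2AB read 9.54, 9.59 and 9.25 against 7.95, 7.82 and 7.59 in BJ-hTERT at 24 h, and 8.99, 8.998 and 9.06 against 7.69, 7.69 and 7.78 at 72 h, mock first. It fell by 1.67 and 1.30 (adjusted p = 3.35e-08 and 8.6e-07). Its HEK293 levels were 9.51, 9.78 and 9.78 on the 24 h mock arrays, 9.73, 9.71 and 9.57 on the 24 h doxycycline arrays, 9.38, 9.30 and 9.41 on the 72 h mock arrays and 9.70, 9.54 and 9.47 on the 72 h doxycycline arrays. There the 24 h groups overlapped, and at 72 h the induced arrays lay just above the mock arrays, by 0.21 ± 0.12 (adjusted p = 0.539).

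HIST2H2AB lies outside the HIST1 cluster. In BJ-hTERT it read 10.26, 10.30 and 10.01 on mock and 8.63, 8.77 and 8.31 on induced arrays at 24 h, and 9.96, 9.98 and 9.93 and 8.26, 8.34 and 8.39 at 72 h. The changes, -1.62 ± 0.12 and -1.63 ± 0.12 (adjusted p = 3.35e-08 and 1.52e-07), passed the test at both times. In HEK293 it read 10.37, 10.39 and 10.25 on the 24 h mock arrays, 10.17, 10.13 and 10.05 on the 24 h doxycycline arrays, 10.15, 10.40 and 10.27 on the 72 h mock arrays and 10.02, 10.01 and 9.91 on the 72 h doxycycline arrays. Every induced array lay below every mock array there too, with differences of -0.22 ± 0.12 and -0.29 ± 0.12, which did not pass the test (adjusted p = 0.641 and 0.31).

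Of 15 tested H2B members, 4 fell in BJ-hTERT at 24 h (HIST1H2BB, HIST1H2BI, HIST1H2BK and HIST1H2BM) and 6 at 72 h (HIST1H2BB, HIST1H2BH, HIST1H2BI, HIST1H2BM, HIST1H2BO and HIST3H2BB). The medians were -0.62 and -0.51, and the 72 h median was -0.81 where the median of each gene's probe sets replaced the mean. The changes ranged at 24 h from -1.97 in HIST1H2BI to -0.00405 in HIST1H2BN. At 72 h HIST1H2BH changed by -1.03 ± 0.31 and HIST1H2BO by -0.72 ± 0.21. The HIST1H2BH call was lost in 3 of the alternative fits and without any of 4 single arrays, with adjusted p up to 0.203. The HIST1H2BO call was lost in 4 of the alternative fits and without any of 4 single arrays, with adjusted p up to 0.207. The HIST1H2BO change was -0.47 without doxycycline replicate 3 and -1.25 with only the brighter probe sets.

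HIST1H2BB read 8.52, 8.47 and 8.73 on BJ-hTERT mock and 6.74, 6.81 and 6.52 on induced arrays at 24 h, a change of -1.89 ± 0.26 (adjusted p = 4.62e-05). At 72 h it read 7.83, 7.76 and 7.77 and 6.07, 6.83 and 5.87, a change of -1.53 ± 0.26 (adjusted p = 0.000544). The BJ-hTERT groups did not overlap. In HEK293 it was at the floor of the array, with 2.06, 2.84 and 2.52 on the 24 h mock arrays, 2.36, 2.57 and 2.87 on the 24 h doxycycline arrays, 2.42, 3.33 and 2.69 on the 72 h mock arrays and 2.61, 1.93 and 1.81 on the 72 h doxycycline arrays. All 4 HEK293 group means were below 2.83, which leaves little room for a lower value. Even so, its 72 h change there, -0.69 ± 0.26, was the lowest of the members. The groups overlapped and it did not pass the test (adjusted p = 0.276).

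HIST1H2BI was likewise called in BJ-hTERT at both times. Its BJ-hTERT levels were 8.77, 8.82 and 8.75 on the 24 h mock arrays, 6.996, 6.81 and 6.62 on the 24 h doxycycline arrays, 8.39, 8.42 and 8.56 on the 72 h mock arrays and 6.99, 6.80 and 6.47 on the 72 h doxycycline arrays. The groups stood apart, with changes of -1.97 ± 0.27 and -1.70 ± 0.27 (adjusted p = 4.85e-05 and 0.000304). On HEK293 arrays it read 2.24, 3.13 and 2.79 on the 24 h mock arrays, 2.58, 2.15 and 1.27 on the 24 h doxycycline arrays, 2.44, 2.23 and 2.89 on the 72 h mock arrays and 2.99, 2.61 and 2.23 on the 72 h doxycycline arrays, again with every group mean below 2.83. Its 24 h change in HEK293, -0.72 ± 0.27, was the lowest of the members at that time. The groups overlapped and it did not pass the test (adjusted p = 0.39).

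HIST1H2BM read 11.26, 10.89 and 11.36 on the 24 h mock arrays, 9.77, 9.32 and 9.78 on the 24 h doxycycline arrays, 11.23, 11.25 and 11.14 on the 72 h mock arrays and 9.68, 9.89 and 9.31 on the 72 h doxycycline arrays in BJ-hTERT. The groups stood apart, and the changes were -1.55 ± 0.45 and -1.58 ± 0.45. Its adjusted p values, 0.0334 and 0.0299, are close to the threshold. Its HEK293 arrays, which enter the same error estimate, read 3.97, 3.52 and 3.43 on the 24 h mock arrays, 4.15, 2.82 and 4.29 on the 24 h doxycycline arrays, 2.47, 3.62 and 2.34 on the 72 h mock arrays and 2.85, 2.59 and 4.79 on the 72 h doxycycline arrays. Leaving out any 1 of the 6 arrays compared ended the 24 h call, with adjusted p up to 0.116, and leaving out doxycycline replicate 1 or 3 or any mock array ended the 72 h call, with adjusted p up to 0.11.

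HIST1H2BK read 9.63, 9.68 and 9.68 on the 24 h mock arrays, 9.19, 9.23 and 9.28 on the 24 h doxycycline arrays, 9.62, 9.70 and 9.65 on the 72 h mock arrays and 9.49, 9.67 and 9.51 on the 72 h doxycycline arrays in BJ-hTERT. The 24 h groups stood apart (-0.43 ± 0.10, adjusted p = 0.00909, or 0.104 with only the arrays compared in the fit) and the 72 h groups overlapped (-0.10 ± 0.10, adjusted p = 0.64). The difference between the times, 0.33 ± 0.15, did not pass the test (adjusted p = 0.517). In HEK293 the levels were 10.05, 10.03 and 9.95 on the 24 h mock arrays, 10.09, 9.94 and 9.74 on the 24 h doxycycline arrays, 9.90, 9.90 and 10.07 on the 72 h mock arrays and 9.99, 10.13 and 10.20 on the 72 h doxycycline arrays, with overlap at both times.

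The promoters of HIST1H2AE and HIST1H2BB are shown as examples of the H2A and H2B genes that fell, with the same motifs in capitals (250 bases before the start, RefSeq GRCh38.p14, chr6:26216671-26216920, plus strand, and chr6:26043714-26043963, minus strand).
HIST1H2AE: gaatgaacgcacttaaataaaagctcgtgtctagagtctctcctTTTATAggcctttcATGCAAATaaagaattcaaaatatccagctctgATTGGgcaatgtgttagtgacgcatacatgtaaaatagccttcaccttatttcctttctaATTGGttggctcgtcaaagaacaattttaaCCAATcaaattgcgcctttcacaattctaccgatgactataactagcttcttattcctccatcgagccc
HIST1H2BB: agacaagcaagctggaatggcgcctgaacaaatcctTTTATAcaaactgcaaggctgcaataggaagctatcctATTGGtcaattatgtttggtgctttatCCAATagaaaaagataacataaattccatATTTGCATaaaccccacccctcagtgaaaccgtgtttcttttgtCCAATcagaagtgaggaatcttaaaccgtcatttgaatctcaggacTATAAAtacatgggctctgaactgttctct
The octamer stood at -192 in HIST1H2AE, on the opposite strand (ATGCAAAT), and at -120 in HIST1H2BB. It occurred in 10 of 12 H2A and 13 of 18 H2B promoter windows and in none of the H1, H3 and H4 windows, against 1.77% of all windows. Of the tested H2B genes, 4 of 11 with the octamer fell at 24 h and 5 of 11 at 72 h, against 0 of 4 and 1 of 4 without it. Of the tested H2A genes, 6 of 10 with it and 1 of 2 without it fell at 24 h, and 5 of 10 and 1 of 2 at 72 h. Over all genes tested, 4.39% fell at 24 h and 4.59% at 72 h. The H2A medians were -0.71 with it and -1.24 without it at 24 h, and -0.955 and -0.946 at 72 h. The H2B medians were -0.62 with it and -0.53 without it at 24 h, and -0.72 and -0.13 at 72 h. Few tested genes lacked the octamer, and a link between it and the change was not tested. CCAAT occurred in 47 of 50 histone windows and TATAAA in 32 of 50, against 34.6% and 11.5% of all windows. In all, 47 of 49 members matched the promoter table. HIST1H2AH and HIST1H3I did not.

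In several H2B genes, probe sets of the same gene lay on opposite sides of 0. Of 30 members with more than 1 tested probe set of their own, 10 had probe sets on both sides of 0 in BJ-hTERT at 24 h and 9 at 72 h, 7 of them at both times. By type these were 7 of 12 H2B, 2 of 8 H2A and 1 of 2 H4 members at 24 h, and 0 of 3 H1 and 0 of 5 H3 members. At 72 h they were 8 of 12 H2B and 1 of 8 H2A members. The difference between probe sets of a gene was not tested, and the position of each probe set in its gene is not given in the sources used here.

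HIST1H2BD is one such case. One of its probe sets read 10.82, 10.71 and 10.77 on the BJ-hTERT mock arrays and 9.21, 9.36 and 9.34 on the induced arrays at 24 h, a fall of 1.47 ± 0.17 (adjusted p = 0.000593 over 268605 probe sets). Another read 3.41, 2.47 and 4.54 and 4.94, 5.44 and 4.76, higher on every induced array, by 1.57 ± 0.47 (adjusted p = 0.138). The last of its probe sets was at -1.96 ± 0.58 and did not pass the test (adjusted p = 0.136). The gene mean was at -0.62 ± 0.24. At 72 h the first and the second were at -1.30 ± 0.17 (adjusted p = 0.00249) and 1.48 ± 0.47 (adjusted p = 0.187).

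HIST1H2BN had a gene mean close to 0 (-0.00405 ± 0.20 at 24 h). One probe set of it read 7.97, 7.85 and 8.12 on mock and 6.29, 6.39 and 6.52 on induced BJ-hTERT arrays at 24 h and fell by 1.58 ± 0.21 (adjusted p = 0.00132). Another read 2.35, 2.05 and 2.41 and 3.86, 3.53 and 3.68, with every induced array higher (1.42 ± 0.39, adjusted p = 0.102). The last was at 0.14 ± 0.57 (adjusted p = 0.965).

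HIST1H2BK split likewise. The probe set at 9.48, 9.49 and 9.53 on mock arrays read 8.55, 8.41 and 8.52 on induced arrays and fell by 1.01 ± 0.17 (adjusted p = 0.00569). The other read 9.79, 9.87 and 9.84 and 9.83, 10.04 and 10.04, a difference of 0.14 ± 0.18 (adjusted p = 0.858). HIST2H2BE, with -1.37 ± 0.26 (adjusted p = 0.0111) for one probe set and 0.99 ± 0.39 (adjusted p = 0.322) for the other, and HIST1H2BF, with -1.73 ± 0.20 (adjusted p = 0.000433) and 0.65 ± 0.44 (adjusted p = 0.652), had probe sets on either side of 0. The upper probe sets did not pass the test. That of HIST1H2BF read low on the 24 h mock arrays, at 2.28, 3.57 and 2.09. At 72 h the probe sets of HIST1H2BK were at -0.67 and 0.46 in BJ-hTERT, and neither passed the test.

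Fitted one by one, own probe sets of 30 members fell in BJ-hTERT at 24 h and of 23 members at 72 h, and no own probe set rose at either time, where 0.329% and 0.25% of all probe sets rose. In HEK293 no own probe set was called at 24 h, where 0.00931% of all probe sets fell and 0.0417% rose. At 72 h 1 rose there, that of HIST1H1T, where 0.0156% fell and 0.0585% rose. Of the 86 own probe sets tested, 42 fell at 24 h and 35 at 72 h, where 0.821% and 0.437% of all probe sets fell. The 8 members called at 24 h by a probe set but not by their mean were HIST1H2AD, HIST1H2BD, HIST1H2BF, HIST1H2BN, HIST1H3E, HIST1H4L, HIST2H2AC and HIST2H2BE. One probe set shared by HIST1H2BC, HIST1H2BE, HIST1H2BF, HIST1H2BG and HIST1H2BI rose in BJ-hTERT at 72 h. It read 3.66, 3.98 and 4.02 on the mock arrays and 5.43, 6.01 and 5.31 on the induced arrays, and the change was 1.70 ± 0.26 (adjusted p = 0.00568).

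**Figure D3:**
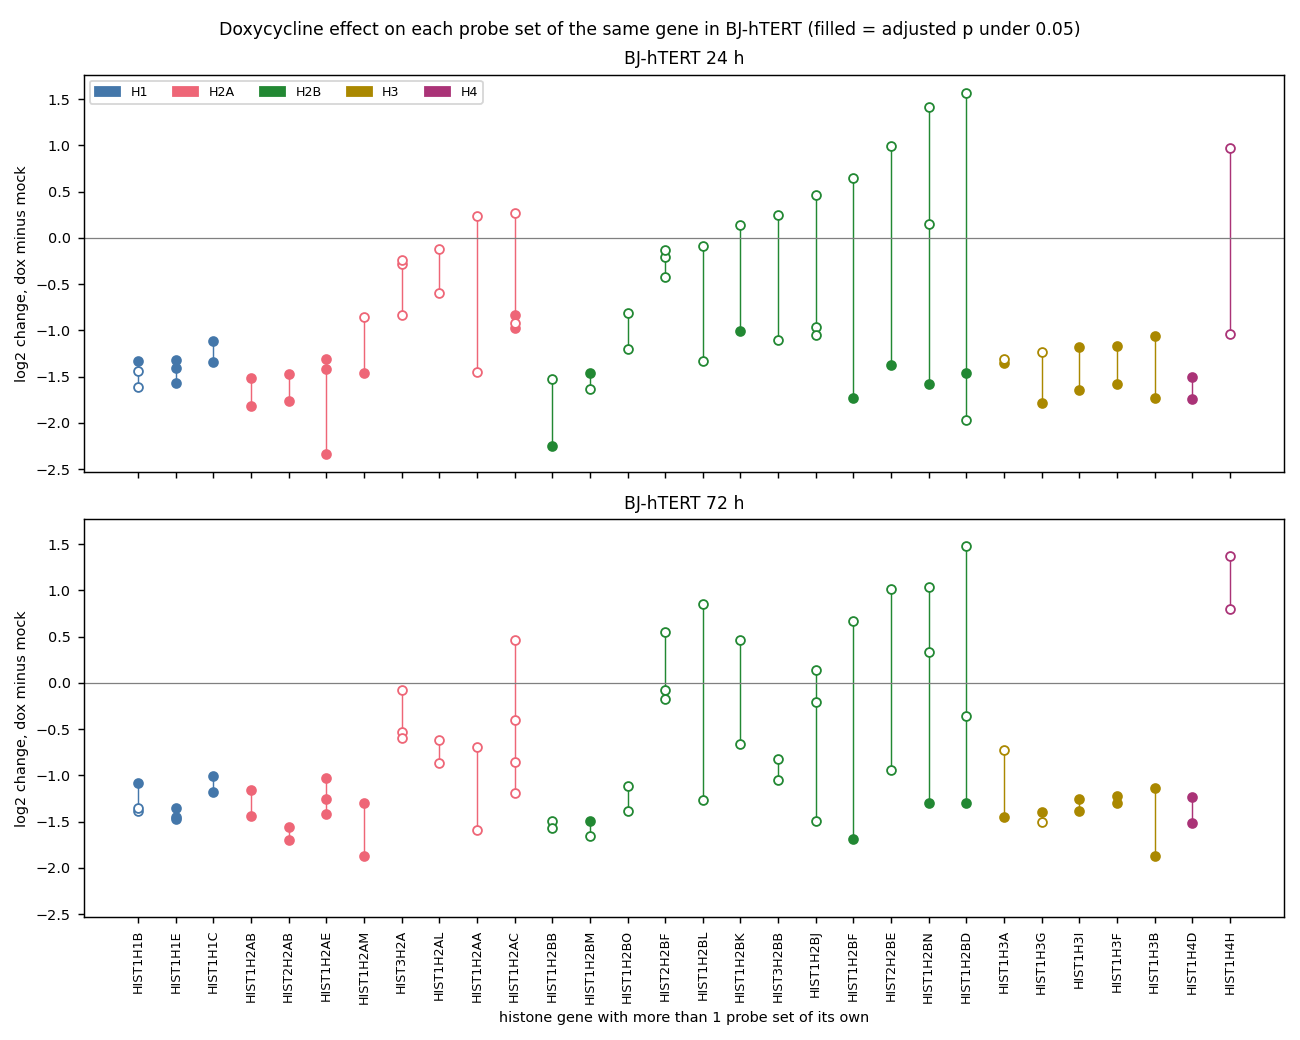
Change in log2 intensity (vertical axis, doxycycline minus mock) of each tested probe set of the 30 histone genes with more than 1 probe set of their own in BJ-hTERT, 24 h above and 72 h below. A line joins the probe sets of a gene, and filled points passed an adjusted p of 0.05. The H1 and H3 genes lie wholly below 0, while 7 H2B genes at 24 h reach from below to above 0.

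H3 and H4 form the tetramer at the centre of the nucleosome. Of 8 tested H3 members, the same 5 fell at both times in BJ-hTERT: HIST1H3A, HIST1H3B, HIST1H3F, HIST1H3G and HIST1H3I. The type median was -1.35 at 24 h and -1.17 at 72 h. The 5 changes lay close together at 24 h, from -1.51 in HIST1H3G to -1.33 in HIST1H3A, and HIST1H3B was at -1.40. The 72 h call of HIST1H3A was lost with only the arrays compared in the fit (adjusted p = 0.0653). HIST1H3E (-0.44 ± 0.37), HIST2H3D (-0.73 ± 0.35) and the testis form HIST3H3 (-0.02 ± 0.34) did not pass the test at 24 h or at 72 h, when HIST3H3 was at 0.84 ± 0.34 with overlapping groups.

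HIST1H3I read 11.23, 11.21 and 11.01 on BJ-hTERT mock arrays and 9.68, 9.78 and 9.76 on induced arrays at 24 h, and 11.01, 10.73 and 10.81 and 9.53, 9.59 and 9.46 at 72 h. The groups stood apart, with changes of -1.41 ± 0.14 and -1.32 ± 0.14 (adjusted p = 7.83e-07 and 3.65e-06). In HEK293 it read 11.46, 11.33 and 10.89 on the 24 h mock arrays, 11.29, 11.10 and 11.11 on the 24 h doxycycline arrays, 11.22, 10.93 and 11.38 on the 72 h mock arrays and 11.31, 11.28 and 11.36 on the 72 h doxycycline arrays, with overlap at both times.

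HIST1H3F gave 10.95, 10.91 and 10.93 on mock and 9.49, 9.65 and 9.52 on induced BJ-hTERT arrays at 24 h, and 10.80, 10.72 and 10.54 and 9.52, 9.53 and 9.23 at 72 h. It fell by 1.37 and 1.26 (adjusted p = 9.56e-08 and 4.79e-07), without overlap. The HEK293 levels were 9.76, 9.68 and 9.58 on the 24 h mock arrays, 9.60, 9.58 and 9.40 on the 24 h doxycycline arrays, 9.51, 9.66 and 9.49 on the 72 h mock arrays and 9.44, 9.39 and 9.55 on the 72 h doxycycline arrays, and overlapped.

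HIST1H3G was at 10.21, 10.26 and 10.17 on the 24 h mock arrays, 8.53, 8.85 and 8.74 on the 24 h doxycycline arrays, 9.75, 9.78 and 9.93 on the 72 h mock arrays and 8.17, 8.39 and 8.54 on the 72 h doxycycline arrays in BJ-hTERT. It fell there by 1.51 and 1.45 (adjusted p = 0.00344 and 0.00512), and the groups stood apart. In HEK293 it was near the floor of the array, with 0.96, 1.85 and 1.01 on the 24 h mock arrays, 3.07, 1.42 and 3.13 on the 24 h doxycycline arrays, 1.15, 1.05 and 1.14 on the 72 h mock arrays and 1.48, 1.79 and 2.28 on the 72 h doxycycline arrays. Its HEK293 difference at 24 h was 1.26 ± 0.32 (adjusted p = 0.105), with overlap, and it passed the test only without doxycycline replicate 2 (1.83, adjusted p = 0.000237) or without mock replicate 2 (1.55, adjusted p = 0.0494).

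Of the 5 H4 genes with probe sets of their own, HIST1H4D, HIST1H4H and HIST1H4L were tested. Other H4 genes are read by shared probe sets only. HIST1H4D fell in BJ-hTERT, HIST1H4H rose at 72 h, and HIST1H4L was -0.47 ± 0.31 at 24 h and -0.76 ± 0.31 at 72 h, neither past the test.

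HIST1H4D read 9.61, 9.62 and 9.82 on BJ-hTERT mock arrays and 8.03, 8.12 and 8.03 on induced arrays at 24 h, and 9.27, 9.16 and 9.20 and 7.83, 7.71 and 7.99 at 72 h. The groups stood apart, with changes of -1.62 ± 0.10 and -1.37 ± 0.10 (adjusted p = 1e-08 and 2.2e-07). In HEK293 it read 10.21, 10.16 and 10.24 on the 24 h mock arrays, 10.18, 10.08 and 10.25 on the 24 h doxycycline arrays, 10.06, 9.94 and 9.81 on the 72 h mock arrays and 9.86, 9.70 and 9.86 on the 72 h doxycycline arrays, and the induced and mock arrays overlapped.

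HIST1H4H was the only member that rose in BJ-hTERT. At 72 h it read 4.77, 4.26 and 4.74 on mock arrays and 5.56, 5.76 and 5.69 on induced arrays, which did not overlap. The change was 1.09 ± 0.22 (adjusted p = 0.00309). At 24 h the arrays read 3.88, 4.87 and 4.86 and 4.29, 4.80 and 4.42 and overlapped (-0.03 ± 0.22). The difference between times, 1.12 ± 0.32, did not pass the test (adjusted p = 0.249). Its probe sets were both above 0 at 72 h (1.37 ± 0.36 and 0.80 ± 0.42) and on either side of 0 at 24 h (0.97 ± 0.36 and -1.04 ± 0.42), and neither passed alone. In HEK293 the gene read 4.76, 5.26 and 4.98 on the 24 h mock arrays, 5.43, 5.07 and 5.01 on the 24 h doxycycline arrays, 4.59, 4.92 and 4.88 on the 72 h mock arrays and 4.61, 4.90 and 4.65 on the 72 h doxycycline arrays, with overlap.

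The promoters of HIST1H4D and HIST1H4H, which were called in opposite directions at 72 h, are shown with the same motifs in capitals (250 bases before the start, RefSeq GRCh38.p14, chr6:26189113-26189362, minus strand, and chr6:26285535-26285784, minus strand).
HIST1H4D: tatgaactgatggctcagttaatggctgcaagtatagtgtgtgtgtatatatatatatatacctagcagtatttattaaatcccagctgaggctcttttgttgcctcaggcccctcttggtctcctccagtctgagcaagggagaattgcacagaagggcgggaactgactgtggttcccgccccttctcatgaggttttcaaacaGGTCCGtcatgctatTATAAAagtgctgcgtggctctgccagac
HIST1H4H: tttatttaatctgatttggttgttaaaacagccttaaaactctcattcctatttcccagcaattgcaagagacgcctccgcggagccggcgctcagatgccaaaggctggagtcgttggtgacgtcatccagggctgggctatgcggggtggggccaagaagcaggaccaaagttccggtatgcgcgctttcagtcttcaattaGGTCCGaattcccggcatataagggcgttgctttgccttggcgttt
Both hold the H4 site, at -44 and -46, which 4 of 5 H4 windows and 11.3% of all windows hold. HIST1H4D also holds TATAAA at -29, and those exact letters do not occur in the HIST1H4H window, which holds the near form tataag.

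Shared probe sets give a view of the H4 genes that cannot be read one by one. A group of 20 distinct probe sets names 14 H4 genes at once. Of 16 shared H4 probe sets tested, 8 fell in BJ-hTERT at 24 h and 6 at 72 h, with medians of -0.86 and -0.83. Over all types 30 shared probe sets were tested, of which 16 fell there at 24 h and 13 at 72 h. Of all probe sets, 0.821% and 0.437% fell in BJ-hTERT. None of the shared H4 probe sets was called in HEK293. In that line 0.00931% of all probe sets fell and 0.0417% rose at 24 h, and 0.0156% and 0.0585% at 72 h. Which of the named genes such a probe set reads cannot be told apart.

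**Figure D4:**
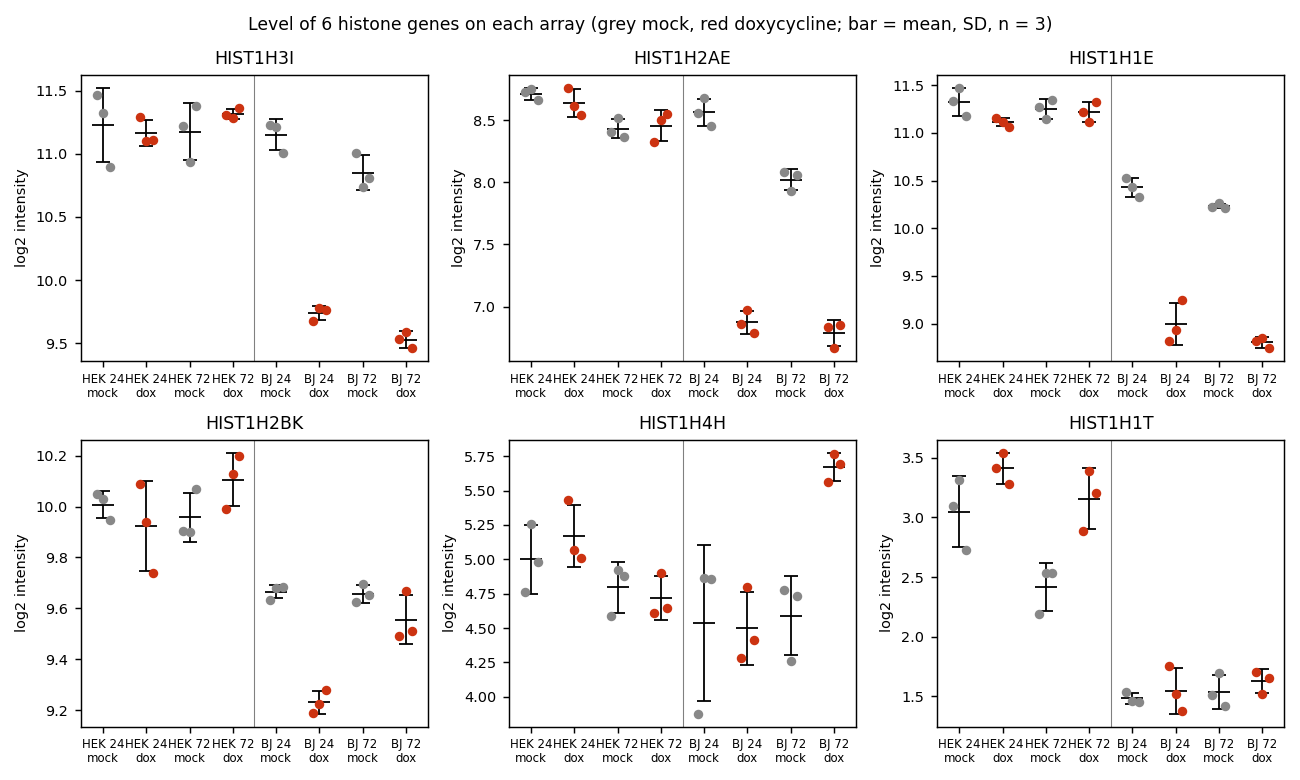
Log2 intensity (vertical axis) of 6 histone genes on each array, grey for mock and red for doxycycline, with mean and SD of 3 arrays in each of 8 groups (horizontal axis, line and time in h). HIST1H3I, HIST1H2AE and HIST1H1E drop in both BJ-hTERT comparisons. The mean of HIST1H2BK was called lower there only at 24 h, though its difference between times did not pass the test. HIST1H4H stands higher in BJ-hTERT at 72 h and HIST1H1T in HEK293 at 72 h.

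By cluster, 21 of 37 tested HIST1 members fell in BJ-hTERT at each time, with medians of -0.93 and -1.03. HIST2H2AB was the 1 of 5 HIST2 members that fell, at both times, and the HIST2 medians were -0.19 and -0.39 (-0.72 at 24 h with only the brighter probe sets averaged). HIST3H2BB was the 1 of 3 HIST3 members that fell, at 72 h (-0.94 ± 0.26, adjusted p = 0.0254). That call was lost in 1 alternative fit and without any of 4 single arrays, with adjusted p up to 0.112. Within HIST1, split at the widest gap between neighbouring members on chromosome 6, 13 of 23 tested members of the first stretch and 8 of 14 of the second fell at each time. The medians at 24 h were -1.23 and -0.72, and at 72 h -1.09 and -0.75. Members called lower lay in both stretches and beside members that were not called. Brightness over both lines moved with the calls: of the 22 members with the higher mean over all arrays, 18 fell at 24 h and 17 at 72 h, and of the 23 dimmer members, 4 and 6 fell. Members low in HEK293 alone can count as dimmer by that mean. HIST1H2BI and HIST1H2BB, for example, had overall means of 5.08 and 4.91. Their BJ-hTERT mock means at 24 h were 8.78 and 8.57. The part of brightness in the difference between clusters was not tested.

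The calls at both times were largely the same genes. A total of 20 members fell at both times, which is 90.9% of those that fell at 24 h and 87% of those that fell at 72 h. HIST1H2AC and HIST1H2BK fell only at 24 h, and HIST1H2BH, HIST1H2BO and HIST3H2BB only at 72 h. The mock and induced arrays of the 2 times are separate. No member passed the test of the difference between 72 and 24 h in either line. Over all genes tested, 0.00577% were lower and 0% higher by that test in BJ-hTERT, and 0.00577% and 0.0115% in HEK293. In BJ-hTERT 4 of 45 members had an unadjusted p under 0.05 for that difference, against 1535 of 17329 genes tested. In HEK293 2 of 45 members did, against 1138 of 17329 genes.

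The histone response differed between the lines. The change in BJ-hTERT was lower than that in HEK293 for 15 of 45 members at 24 h, where 3.17% of all genes tested were lower and 1.57% higher. Of these 15, HIST1H1B, HIST1H2BB and HIST1H3G were below 2.83 in every HEK293 group mean, so they were tested through their BJ-hTERT levels alone and had little room to fall in HEK293, which leaves 12 measured in both lines. At 72 h it was lower for 15 and higher for 1, HIST1H4H (1.16 ± 0.32, adjusted p = 0.0354), where 2.85% were lower and 2.42% higher. Without HIST1H2BI and HIST1H3G, which were below 2.83 in every HEK293 group mean, 13 were lower. Of these, the HIST1H2BM difference was lost in 16 of 21 other settings, with adjusted p up to 0.116. The HEK293 mock mean of HIST1H2BM at 72 h was 2.81. That of HIST1H1D was lost in 15 of 21, with adjusted p up to 0.105. The HIST1H4H difference was lost in 2 of the alternative fits and without any of 7 single arrays, with adjusted p up to 0.0935. The median difference was -0.85 at 24 h and -0.90 at 72 h. HIST1H2AE differed by -1.62 ± 0.15 at 24 h (adjusted p = 7.34e-06) and HIST1H2AB by -1.50 ± 0.17 at 72 h (adjusted p = 3.81e-05). HIST1H4D differed by -1.59 ± 0.15 and HIST2H2AB by -1.40 ± 0.17 at 24 h, and HIST1H1E by -1.39 ± 0.16 at 72 h. The 11 members lower at both times, of which 1 (HIST1H3G) was below 2.83 in HEK293, had all fallen in BJ-hTERT at both times.

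Some histone genes were above the testing level in 1 line only, although the difference in level between lines was not tested. Of the 45 tested members, 9 had every HEK293 group mean below 2.83, and 2 (HIST1H1T and HIST1H2AL) every BJ-hTERT group mean below it. Of the 25 members that fell in BJ-hTERT at either time, 6 were among those 9: HIST1H1B, HIST1H2AJ, HIST1H2BB, HIST1H2BH, HIST1H2BI and HIST1H3G. HIST1H1B, for example, ranged on 12 HEK293 arrays from 1.22 to 3.13 with a median of 2.27, and on 12 BJ-hTERT arrays from 7.70 to 9.44 with a median of 8.49. The other 19 were measurable in HEK293, where none was called. Their HEK293 median change was -0.06 at 24 h, with a range from -0.38 to 0.23, and -0.04 at 72 h, with a range from -0.29 to 0.60.

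Between the mock arrays of BJ-hTERT, 34 of 45 members were below 0 at 72 h against 24 h, and the median difference was -0.20. HIST1H2AE (-0.54 ± 0.11, adjusted p = 0.0101) and HIST1H4D (-0.47 ± 0.10, adjusted p = 0.023) passed the test, where 0.692% of all genes tested were lower and 1.16% higher. Both calls were lost in some alternative fits and without some single arrays, with adjusted p up to 0.341 and 0.247, and HIST1H2AE was at -0.36 with the median of probe sets. The 72 h mock arrays lay below the 24 h mock arrays without overlap for 17 members, against 9.1% of all genes tested. In HEK293 no member passed this test, where 0.0981% of all genes tested were lower and 0.271% higher, and the median was -0.06. There 6 of 45 members had an unadjusted p under 0.05, against 2162 of 17329 genes tested.

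The histone genes were set beside genes that act with them. Of the replication-independent histone genes, which are also made outside S phase, 9 of 12 listed were measured. H3F3A, H3F3B and H1F0 were not, so the list is read without them. H1FX, a linker histone (-0.76 ± 0.14, adjusted p = 0.00112), H2AFX, the variant marked at DNA breaks (-0.83 ± 0.18, adjusted p = 0.00344), and CENPA, the centromere histone (-0.72 ± 0.22, adjusted p = 0.0455), fell in BJ-hTERT at 24 h. At 72 h H1FX (-0.72 ± 0.14) and H2AFX (-0.87 ± 0.18) fell. The list median was -0.57 at 24 h. Among all genes tested 4.39% fell in BJ-hTERT at 24 h and 4.59% at 72 h.

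The medians of the 15 tested genes of histone gene transcription in BJ-hTERT were -0.26 at 24 h and -0.10 at 72 h. At each time 3 fell, where 4.39% and 4.59% of all genes tested fell. These were CDK2, the kinase that activates NPAT (-0.89 ± 0.14 at 24 h and -0.48 ± 0.14 at 72 h), its partner cyclin gene CCNE2 (-0.90 ± 0.18 and -0.76 ± 0.18), and E2F1, an activator of S phase genes (-1.15 ± 0.20 and -0.71 ± 0.20). NPAT itself did not pass the test (-0.45 ± 0.18 at 24 h, adjusted p = 0.136).

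Of 18 tested genes of histone messenger RNA processing and decay, 3 fell and 1 rose in BJ-hTERT at 24 h, and the median was -0.01. At that time 4.39% of all genes tested fell and 4.47% rose. SLBP, the stem-loop binding protein (-0.61 ± 0.14, adjusted p = 0.00689), and LSM11 (-0.89 ± 0.22, adjusted p = 0.012) and ZNF473 (-0.71 ± 0.20, adjusted p = 0.028), which work with the U7 particle that cuts the message, fell. ZCCHC6, a uridylyltransferase, rose (0.57 ± 0.15, adjusted p = 0.0184). No gene of that list was called at 72 h, when 4.59% of all genes tested fell and 4.03% rose.

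Of 22 tested chaperones and assembly factors, 10 fell in BJ-hTERT at 24 h and 9 at 72 h, with medians of -0.40 and -0.35. Among all genes tested 4.39% and 4.59% fell. CHAF1B (-1.42 ± 0.14) and CHAF1A (-1.29 ± 0.14), subunits of the factor that deposits H3 and H4 behind the replication fork, MCM2 (-1.16 ± 0.12), a helicase subunit that also holds H3 and H4, and MMS22L (-0.96 ± 0.12), a replication fork factor, had the smallest p at 24 h. At 72 h these were MCM2 (-0.81 ± 0.12), SSRP1 (-0.77 ± 0.12), the histone importin IPO4 (-0.76 ± 0.12) and the CENPA chaperone HJURP (-0.96 ± 0.15). In HEK293 IPO4 rose at 72 h (0.52 ± 0.12, adjusted p = 0.0331), the only call on any of these lists in that line. At that time 0.952% of all genes tested rose in HEK293.

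In BJ-hTERT the cell cycle lists moved with the histone genes. All 21 tested S phase genes fell at both times, with medians of -1.02 and -0.86, and of 16 genes of G2 and mitosis 16 fell at 24 h and 15 at 72 h, when CDK1 did not pass, with medians of -1.24 and -0.97. MCM3 (-1.14 ± 0.09), a helicase subunit, TYMS (-1.11 ± 0.11), which makes thymidylate, MCM7 (-1.18 ± 0.12) and the sliding clamp PCNA (-1.02 ± 0.11) had the smallest p among the S phase genes at 24 h. BUB1B (-1.38 ± 0.10), PLK1 (-1.17 ± 0.09), CCNA2 (-1.24 ± 0.10) and AURKB (-1.40 ± 0.12) had the smallest p among those of G2 and mitosis. The share of all genes tested that fell in BJ-hTERT was 4.39% at 24 h and 4.59% at 72 h. None of either list was called in HEK293, where 0.0173% of all genes tested fell at 24 h and 0.26% at 72 h. On the BJ-hTERT arrays the mean level of the S phase list was 7.63 to 7.76 on 24 h mock arrays and 6.68 to 6.76 on induced arrays, and 7.46 to 7.53 against 6.60 to 6.65 at 72 h. The mean over the 45 histone genes moved with it, from 6.56 to 6.66 on 24 h mock arrays to 5.69 to 5.71 on induced arrays, and from 6.32 to 6.44 to 5.50 to 5.66 at 72 h. On HEK293 arrays that histone mean stayed between 5.55 and 5.75. The part of cell cycle position in the histone changes was not tested.

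**Figure D5:**
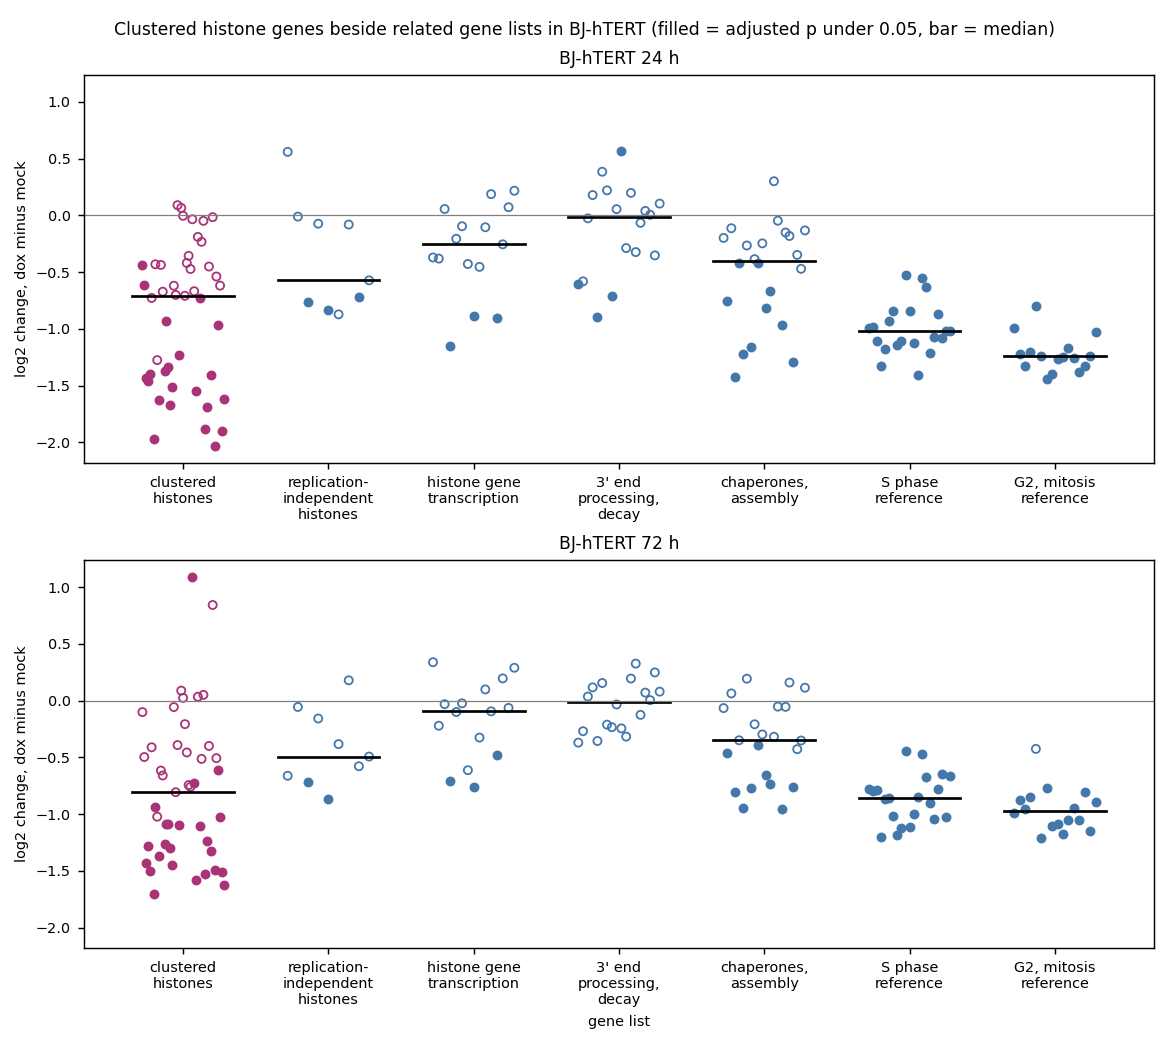
Change in log2 intensity (vertical axis, doxycycline minus mock) in BJ-hTERT of the 45 clustered histone genes and of the genes on 6 related lists (horizontal axis), 24 h above and 72 h below. Filled points passed an adjusted p of 0.05 and bars are medians. All S phase points are filled and below 0, the processing and decay list is centred on 0, and the clustered histone genes span both ranges.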

How the data were processed

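Total RNA of 24 arrays was hybridised to whole-transcript Affymetrix arrays, and the values are log2 intensities per probe set as the authors deposited them in one table. Per the submitters' processing notes, GCOS, RMA and Affymetrix Expression Console were used, with no versions given, and per the series design text the authors used the packages oligo and limma. A genome build for the probes is not given in the sources used here. Samples were grouped by the line, treatment and time in their labels.

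Probe sets were named from the platform annotation: 257971 of 352859 had 1 gene symbol, 17460 had several and the rest are unnamed here. A gene's level is the mean over its probe sets with that symbol alone (25029 genes). Genes were tested if a group mean was at or above 2.83, which is percentile 40 of the group means taken over all genes, and 17329 were. limma 3.58.1 (lmFit and eBayes, R 4.3.3) was fitted on all 24 arrays in 8 groups, with Benjamini-Hochberg adjustment over all genes tested and a call at 0.05. A test of each probe set alone was added after seeing the data. On simulated data for the BJ-hTERT comparison at 24 h (17329 genes, 200 changed), the fit recovered 29% of changes of 1.5-fold and 67% of changes of 2-fold, with 6 false calls. The number of arrays, 3 per group, limits the precision.

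Members and gene lists were chosen with earlier results of these data known. Values on every array are given for the 2 brightest members of each type, the 4 with the smallest p in each doxycycline comparison, members called against the direction of most, and the 4 with the smallest p among those called in each other comparison. Other members are named when called or at the end of a range, and list genes when called, at most 4 per list and comparison by smallest p. NPAT, and the examples of probe sets and of HIST1H1B, were chosen after their values were seen. Same-numbered arrays of the mock and doxycycline groups correlated at -0.0252 to 0.086 in their deviations from the group means over 12 pairs, so the numbers were not taken as pairs. Alternatives varied the probe set summary, the dim probe set and dim gene filters, the normalization, the arrays in the fit, the variance model, the replicate block and single arrays left out.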

Additional observations from a re-analysis of the deposited data

Results flagged for a closer look

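The doxycycline effect on histone genes differed between the 2 lines by a test of the difference itself. At 24 h 15 members differed, all lower in BJ-hTERT, and 3 of them (HIST1H1B, HIST1H2BB and HIST1H3G) were below the testing level in every HEK293 group, with little room to fall there. Those with the smallest p were HIST1H2AB (-1.65), HIST1H2AE (-1.62), HIST1H4D (-1.59) and HIST2H2AB (-1.40), each given as the BJ-hTERT change minus the HEK293 change on the log2 scale. At 72 h 16 members differed, 15 lower in BJ-hTERT and HIST1H4H higher, and 2 of the 15 (HIST1H2BI and HIST1H3G) were below the testing level in every HEK293 group. Those with the smallest p were HIST1H2AB (-1.50), HIST1H1E (-1.39), HIST1H2AE (-1.26) and HIST1H4D (-1.24).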

How the results depend on the processing

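No call changed direction under the settings run. Of the medians by type and cluster, 7 changed sign, all in HEK293 and none larger than 0.126 in size on either side. Of the calls, 18 of 22 at 24 h and 16 of 24 at 72 h in BJ-hTERT held under every other processing tried, single arrays left out included, as did 13 of 15 and 13 of 16 of the line differences. Neither the HIST1H1T call in HEK293 nor the 2 calls between BJ-hTERT mock times held under all. The HEK293 count at 72 h was 0 with the median of probe sets, with only the arrays compared, or with trend and robust variance estimation. The count between mock times was 1 in HEK293 with only brighter probe sets, and in BJ-hTERT 0 with the median of probe sets or only the arrays compared, 1 with quantile normalization and 4 with only brighter probe sets. Averaging only brighter probe sets gave BJ-hTERT medians at 24 and 72 h of -1.20 and -1.16 over all members, -1.33 and -1.29 for H1, -1.46 and -1.27 for H2A, -1.38 and -1.22 for H4, and -1.35 and -1.26 for HIST1. It gave -0.72 for HIST2 in BJ-hTERT at 24 h and -0.0226 in HEK293 at 72 h. The median of probe sets gave -0.81 over all members and -0.96 for H2A in BJ-hTERT at 24 h, -0.81 for H2B there at 72 h, -0.15 for H2A and -0.0354 for H2B in HEK293 at 72 h, and 0.00205 for H2B at 24 h. With each probe set fitted alone, members with a called probe set numbered 0 and 1 in HEK293 and 30 and 23 in BJ-hTERT. Without single arrays the counts ranged from 0 to 1 in HEK293 at both times, 19 to 22 and 18 to 22 in BJ-hTERT, 14 to 15 and 13 to 16 for the line differences, and 0 to 2 between BJ-hTERT mock times. The time differences and HEK293 mock times stayed at 0. With a replicate block, which the numbers do not support as pairs, 20 and 21 members were called in BJ-hTERT at 24 and 72 h, 1 in HEK293 at 72 h and 14 in each line difference. The cause of these shifts was not tested. Members near the testing level of 2.83 have little room to fall.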
